A study of Mus musculus with 12 samples.

Results

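The IL6 and LIF cytokines with STAT3 signalling were followed as 10 genes: the ligands Il6, Lif, Il11 and Osm, the receptor subunits Il6st, Lifr and Osmr, the transcription factor Stat3, and the response genes Socs3 and Cebpd. Each gene was read from the transcript clusters, the gene-level features of the array, that carry its symbol alone, and where there was more than 1 the cluster with the highest mean over 12 arrays was taken. All 10 genes were found, among 19938 genes with a cluster of their own. Socs3 was the member with 2 clusters.

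The arrays measured endometrial RNA, scraped from the opened uterus, of CBAF1 females, which are F1 offspring of CBA and C57Bl/6 mice, aged 9 to 16 weeks. Intact-mated females had mated with intact BALB/c males, whose ejaculate holds sperm, and vasectomised-mated females with vasectomised males of that strain, whose ejaculate lacks sperm and the secretions of the testis and epididymis, and both were collected 8 h later. Unmated controls were virgin females that the labels place in estrus and the design text in pro-estrus, at 2000 h. Mated females had been caged with males late in the evening of pro-estrus. Mating, hour of collection and stage of the cycle therefore cannot be told apart when mated females are set against controls. Each group had 4 arrays, and each array held the pooled RNA of 4 females, so the spread between arrays is a spread between pools. Values are log2 intensities summarised over the probes of a gene, and a level is not comparable between genes. The number of arrays limits the precision. Array medians lay between 7.25 and 7.32. All 9 epithelial, all 9 stromal and all 7 smooth muscle marker genes had a mean above the median of all clusters, 7.28. So did 5 of 10 macrophage and monocyte, 4 of 8 endothelial, 3 of 8 dendritic cell and 3 of 16 neutrophil markers. The counts were 2 of 6 for fat and mesothelium and 1 of 11 for T, NK and B cells. As levels are not comparable between genes, these counts do not measure the share of each cell type.

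In this family of cytokines each ligand binds receptor chains that include or resemble gp130, the product of Il6st. LIF signals through the LIF receptor with gp130, IL6 and IL11 through their own alpha chains with gp130, and oncostatin M, in mice, mainly through the oncostatin M receptor with gp130. The receptors activate JAK kinases, which phosphorylate STAT3, and STAT3 in turn induces genes that include Socs3, a feedback inhibitor of gp130, and Cebpd, which encodes C/EBP delta, a regulator of acute-phase genes. In the mouse uterus LIF is needed for embryo implantation and IL11 for the decidual response that follows it.

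The promoters of 8 of the 10 members were found in a RefSeq table of the GRCm38.p6 build, as windows of 300 bases with 250 before and 50 after a start site. Cebpd and Osm had no window there and were not searched. The other 8 were searched on both strands for the letters TTCNNNGAA (STAT), GGGA, any base and TTTCC (NF-kB), TTGCGNAA (C/EBP) and TGANTCA (AP-1). In that order, 8.3%, 0.411%, 0.798% and 7.81% of 32851 promoter windows held them. Il6, at chr5:30012864-30013163 on the plus strand, Lif, at chr11:4257318-4257617 on the plus strand, and Lifr, at chr15:7129322-7129621 on the plus strand, are shown because they were called in a comparison below, and Socs3, at chr11:117969317-117969616 on the minus strand, because it held the STAT letters. Capitals mark the matches, none of which overlap.
Il6: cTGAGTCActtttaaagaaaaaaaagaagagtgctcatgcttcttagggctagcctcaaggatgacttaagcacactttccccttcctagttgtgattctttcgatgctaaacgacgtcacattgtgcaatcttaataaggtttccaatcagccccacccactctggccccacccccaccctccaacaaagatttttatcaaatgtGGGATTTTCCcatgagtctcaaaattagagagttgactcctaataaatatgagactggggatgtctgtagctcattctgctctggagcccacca
Lif: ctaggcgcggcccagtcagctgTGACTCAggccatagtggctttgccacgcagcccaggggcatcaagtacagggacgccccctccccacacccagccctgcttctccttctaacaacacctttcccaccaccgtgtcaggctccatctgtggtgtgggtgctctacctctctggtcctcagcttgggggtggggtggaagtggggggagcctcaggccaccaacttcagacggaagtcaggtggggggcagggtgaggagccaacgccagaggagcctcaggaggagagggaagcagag
Lifr: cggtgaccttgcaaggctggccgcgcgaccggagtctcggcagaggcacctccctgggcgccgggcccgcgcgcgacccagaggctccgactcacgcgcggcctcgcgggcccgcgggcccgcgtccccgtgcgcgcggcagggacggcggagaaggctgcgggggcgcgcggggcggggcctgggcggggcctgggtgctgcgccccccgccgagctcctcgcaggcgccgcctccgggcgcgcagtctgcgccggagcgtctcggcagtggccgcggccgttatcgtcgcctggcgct
Socs3: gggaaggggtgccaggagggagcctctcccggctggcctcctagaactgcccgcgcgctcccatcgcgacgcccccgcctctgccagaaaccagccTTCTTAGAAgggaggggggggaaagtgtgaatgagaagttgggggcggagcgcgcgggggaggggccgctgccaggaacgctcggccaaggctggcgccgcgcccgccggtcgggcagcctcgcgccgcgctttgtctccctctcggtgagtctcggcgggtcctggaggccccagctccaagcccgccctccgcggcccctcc
Il6 held the NF-kB letters as GGGATTTTCC, 44 to 35 bases before the start, and the AP-1 letters 249 to 243 bases before it. Lif held the AP-1 letters 228 to 222 bases before its start, and Socs3 the STAT letters as TTCTTAGAA 154 to 146 bases before its start. The Lifr window shown, and a second Lifr start at chr15:7140292-7140591, held none of the 4 letter strings, and nor did the windows of Il6st and Stat3. Of the other members Il11, in 1 of 2 windows, and Osmr held the AP-1 letters. A match is a description of these windows and not a measured site.

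Against unmated controls, Il6, Lif and Cebpd rose in intact-mated females and Lifr fell, while in vasectomised-mated females Cebpd alone of the 10 members was called. Between the mated groups Il6 was higher and Lifr lower in intact-mated females. A gene was called when it differed by 1.5-fold or more with a limma adjusted p no greater than 0.05, the adjustment being made over every cluster. By this rule 3 of 10 members were higher and 1 lower in intact-mated females, where 2.71% of 21789 clusters with 1 symbol were called higher and 2.08% lower. Without the fold threshold 5 members were higher and 2 lower, against 7.45% and 5.93% of clusters. After mating with vasectomised males 1 member was higher and 0 lower, against 1.16% and 0.633%, and between intact- and vasectomised-mated females 1 was higher and 1 lower, against 0.592% and 0.266%. For the 0 lower in limma in vasectomised-mated females, 1 member, Il11, was lower at an unadjusted p under 0.05, and the alternative fits gave 0 likewise. The median log2 fold-change of the members was 0.25 in intact-mated females and 0.16 in vasectomised-mated females, beside medians of 0.00 and -0.01 over clusters with 1 symbol. Fold-changes in a mated group are against unmated controls unless another comparison is named. Both share the 4 control pools, so their values are given side by side. Intervals are 95% intervals of a single difference.

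**Figure D1:**
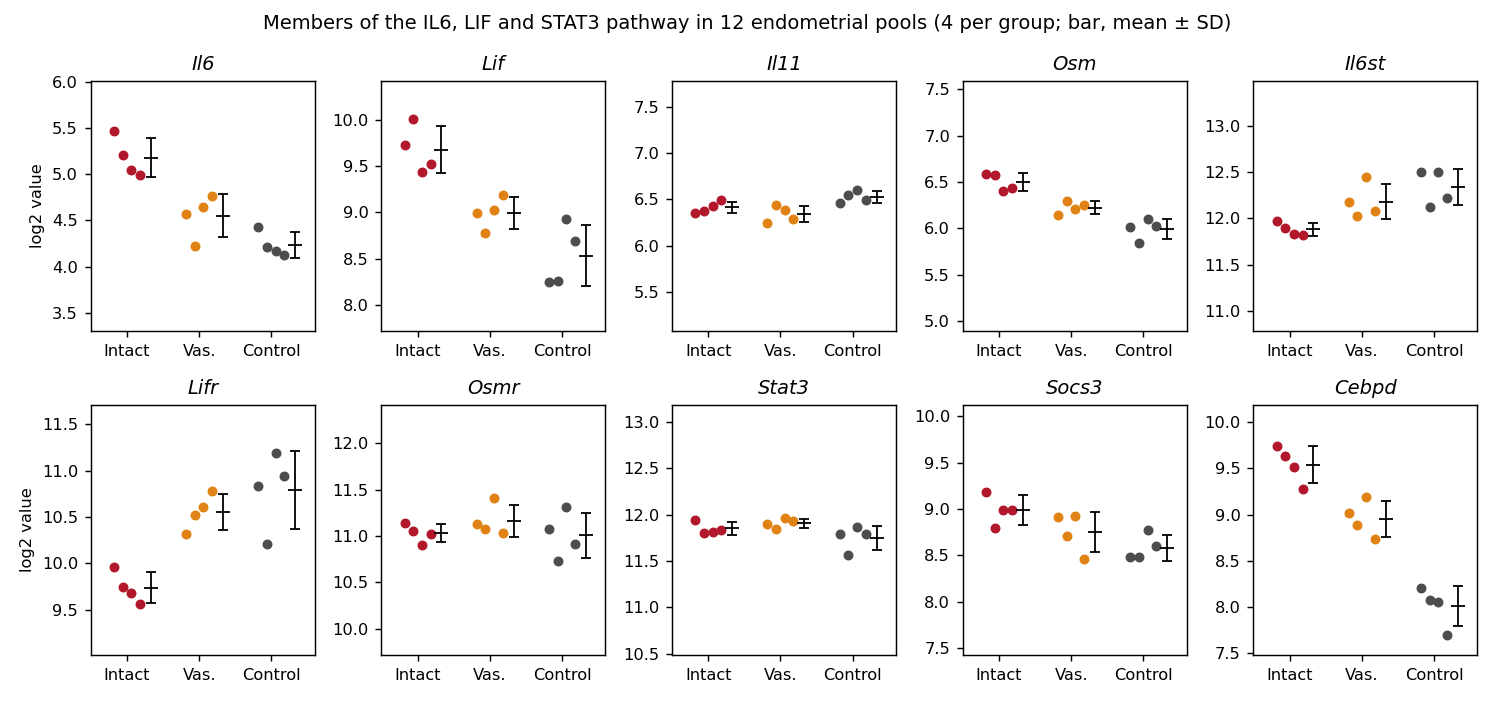
Log2 value (vertical axes, each spanning the same range) of each member in the 4 intact-mated, 4 vasectomised-mated (Vas.) and 4 unmated control pools. Points are arrays and bars the mean ± SD. Il6, Lif and Cebpd stood highest in all 4 intact-mated pools and Lifr lowest there.

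Among the ligands, Il6 encodes interleukin-6, an inflammatory cytokine that acts on leukocytes and epithelium. Its log2 values were 5.46, 5.21, 5.04 and 4.995 in the intact-mated pools 1 to 4, 4.57, 4.23, 4.65 and 4.76 in the vasectomised-mated pools, and 4.44, 4.21, 4.17 and 4.13 in the unmated controls. All intact-mated pools lay above all others, while vasectomised-mated pool 2 lay among the controls. Il6 rose 1.92-fold in intact-mated females (log2 fold-change 0.94, SE 0.13, limma adjusted p = 0.000538). After mating with vasectomised males its log2 fold-change was 0.32 (SE 0.13, interval 0.04 to 0.59, limma adjusted p = 0.206). The direct comparison placed intact-mated females 1.54-fold above vasectomised-mated females (log2 difference 0.63, SE 0.13, limma adjusted p = 0.0281). Il6 values lay well under the array medians, and no detection call was used here.

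Lif encodes leukemia inhibitory factor, which uterine glands secrete before implantation. It had log2 values of 9.73, 10.01, 9.44 and 9.52 in intact-mated pools, 8.996, 8.77, 9.03 and 9.18 in vasectomised-mated pools, and 8.25, 8.26, 8.93 and 8.69 in controls. The intact-mated pools again lay above all others. Controls 1 and 2 were low and controls 3 and 4 higher, and control 3 lay above vasectomised-mated pool 2. Lif rose 2.20-fold in intact-mated females (log2 fold-change 1.14, SE 0.16, limma adjusted p = 0.000818). After mating with vasectomised males the log2 fold-change was 0.46 (SE 0.16, interval 0.10 to 0.82, limma adjusted p = 0.151). With controls 3 and 4 left out it was 0.74 and passed the test (limma adjusted p = 0.0297), and with controls 1 and 2 left out it was 0.19 (limma adjusted p = 0.508). The difference from control in vasectomised-mated females thus moved with the control pools used. Intact-mated exceeded vasectomised-mated females by 0.68 (SE 0.16, interval 0.32 to 1.04), with no overlap between pools, and the limma adjusted p of 0.0532 missed the threshold. It was 0.0178 to 0.142 over 26 alternatives, 11 of which passed.

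Osm encodes oncostatin M, a product of activated myeloid cells. Its values were 6.58, 6.58, 6.40 and 6.43 in intact-mated pools, 6.14, 6.30, 6.21 and 6.25 in vasectomised-mated pools, and 6.01, 5.84, 6.10 and 6.03 in controls. The 3 groups formed 3 steps without overlap. The difference of intact-mated females from controls was 0.50 (SE 0.07, limma adjusted p = 0.000762), which passed the test and, at 1.42-fold, stayed under the fold threshold. For vasectomised-mated females it was 0.23 (SE 0.07, limma adjusted p = 0.105), and between the mated groups 0.27 (SE 0.07, limma adjusted p = 0.0673). Il11, the ligand of the decidual response, ran between 6.35 and 6.50 in intact-mated pools, 6.25 and 6.44 in vasectomised-mated pools and 6.46 and 6.61 in controls. Its log2 fold-changes from control were -0.11 (interval -0.25 to 0.02) in intact-mated females and -0.19 (interval -0.33 to -0.05) in vasectomised-mated females, neither called (limma adjusted p = 0.323 and 0.129). The controls overlapped the intact-mated pools and lay just above the vasectomised-mated pools.

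Among the receptor subunits, Lifr, which encodes the LIF receptor chain, ran opposite to its ligand in intact-mated females. Lifr values were 9.96, 9.74, 9.67 and 9.56 in intact-mated pools, 10.32, 10.52, 10.60 and 10.78 in vasectomised-mated pools, and 10.84, 10.20, 11.19 and 10.94 in controls. Each intact-mated pool lay below all 8 other pools, while vasectomised-mated pools lay within the range of the controls, of which control 2 was the lowest. Lifr was 2.08-fold lower in intact-mated females (log2 fold-change -1.06, SE 0.18, limma adjusted p = 0.00235) and 1.77-fold lower in intact-mated than in vasectomised-mated females (log2 difference -0.82, SE 0.18, limma adjusted p = 0.0343). For vasectomised-mated females against controls the log2 fold-change was -0.24 (SE 0.18, interval -0.62 to 0.15, limma adjusted p = 0.527), and 0.04 with controls 3 and 4 left out. In RNA of a whole tissue layer, fewer cells that express a gene and less of its RNA per cell cannot be told apart.

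Il6st encodes gp130, the chain shared by the family. Il6st values were 11.98, 11.90, 11.83 and 11.82 in intact-mated pools, 12.17, 12.03, 12.44 and 12.07 in vasectomised-mated pools, and 12.50, 12.12, 12.49 and 12.22 in controls. The intact-mated pools lay below all others. The difference from controls was -0.46 (SE 0.11, limma adjusted p = 0.0184), which passed the test at 1.37-fold, under the fold threshold. The difference from vasectomised-mated females was -0.30 (SE 0.11, interval -0.53 to -0.06, limma adjusted p = 0.176). Osmr, the oncostatin M receptor chain, was not called, with log2 fold-changes of 0.02 (interval -0.24 to 0.28) in intact-mated females and 0.16 (interval -0.10 to 0.41) in vasectomised-mated females. Control 2 was the lowest control for Il6st, Lifr and Osmr alike, and also for Stat3.

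Stat3 encodes the transcription factor that the receptors activate by phosphorylation, which an RNA array does not read. Its values ran between 11.80 and 11.95 in intact-mated pools, 11.84 and 11.96 in vasectomised-mated pools and 11.56 and 11.86 in controls, all groups overlapping. The log2 fold-changes were 0.10 (interval -0.05 to 0.25, limma adjusted p = 0.465) in intact-mated females and 0.16 (interval 0.00 to 0.31, limma adjusted p = 0.257) in vasectomised-mated females. Both intervals stayed within 1.5-fold.

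Of the response genes, Cebpd had the largest change of the 10 members in both mated groups. Cebpd values were 9.74, 9.63, 9.51 and 9.28 in intact-mated pools, 9.01, 8.89, 9.19 and 8.73 in vasectomised-mated pools, and 8.20, 8.08, 8.06 and 7.70 in controls. The 3 groups did not overlap. Cebpd rose 2.88-fold in intact-mated females (log2 fold-change 1.53, SE 0.13, limma adjusted p = 1.86e-05) and 1.92-fold in vasectomised-mated females (log2 fold-change 0.94, SE 0.13, limma adjusted p = 0.00224). Between the mated groups the log2 difference was 0.58 (SE 0.13, limma adjusted p = 0.0398), which passed the test and lay just under the threshold of 1.5-fold, a log2 difference of 0.585. It stood above that threshold under quantile normalization (log2 difference 0.61) and median centring (0.61), and the test itself was lost without variance moderation (adjusted p = 0.0845) and when any mated pool but intact-mated pool 4 was left out.

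Socs3 encodes the suppressor that binds gp130 and JAK kinases. It had log2 values of 9.18, 8.80, 8.99 and 8.99 in intact-mated pools, 8.92, 8.71, 8.92 and 8.46 in vasectomised-mated pools, and 8.48, 8.48, 8.78 and 8.60 in controls. The intact-mated pools lay above the controls by a narrow margin, and the vasectomised-mated pools overlapped both. The log2 fold-change in intact-mated females was 0.41 (SE 0.12, limma adjusted p = 0.0432), which passed the test at 1.33-fold, under the fold threshold. A second cluster with the Socs3 symbol, of lower mean, ran between 6.81 and 7.02 in intact-mated pools and 6.71 and 7.08 in controls, with a log2 fold-change of 0.05 (SE 0.09, limma adjusted p = 0.811). The difference between intact- and vasectomised-mated females was 0.24 (interval -0.01 to 0.49, limma adjusted p = 0.319).

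**Figure D2:**
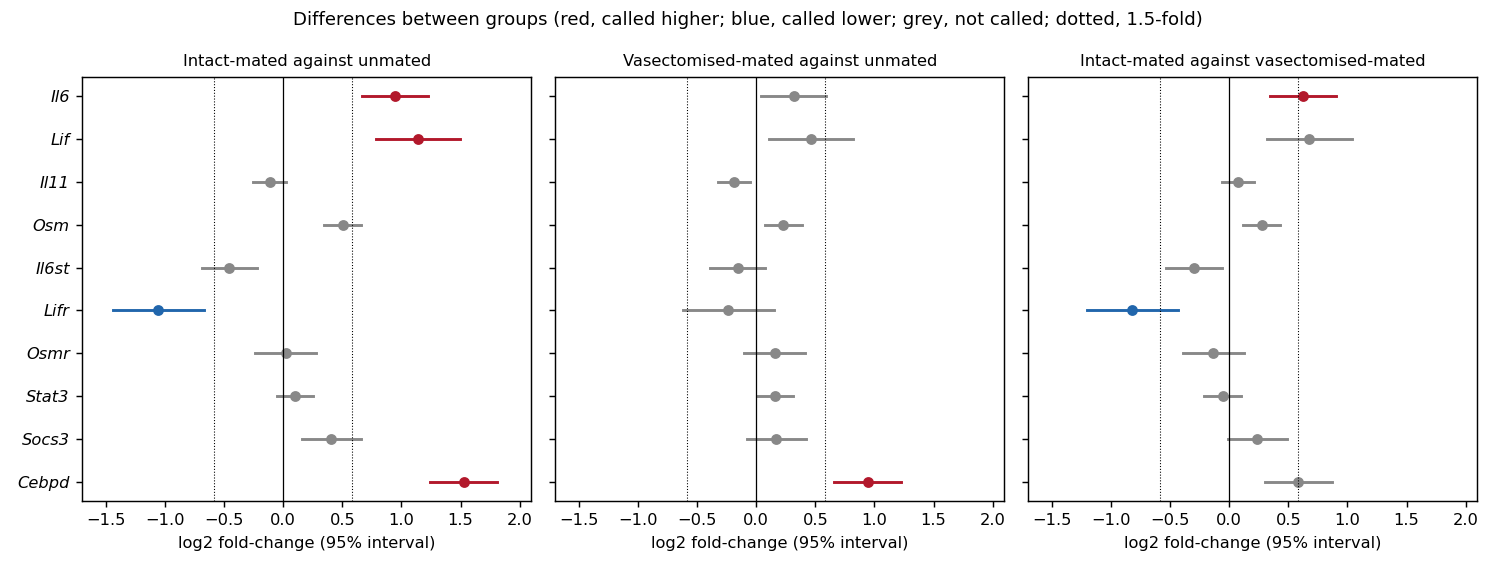
Log2 fold-change (horizontal axes) with its 95% interval for each member in the 3 comparisons, the first-named group minus the second. Red marks genes called higher, blue genes called lower, grey genes not called, and dotted lines 1.5-fold. Lifr is blue in both comparisons of intact-mated females, and Cebpd is red in both comparisons with unmated controls.

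The calls of Il6, Lif, Cebpd and Lifr against controls in intact-mated females held when any 1 of the 12 arrays was left out. The smaller differences of Il6st and Socs3 did not hold. Il6st missed the adjusted p without intact-mated pool 3 (0.0525) or 4 (0.0561) or control 1 (0.0524), and Socs3 missed it without intact-mated pool 1, 3 or 4, vasectomised-mated pool 2 or control 1, 2 or 4, with limma adjusted p of at most 0.115. Calls between the mated groups did not hold either. Il6 was not called there without intact-mated pool 1 (log2 difference 0.53), 2 (0.62) or 4 (0.69), or vasectomised-mated pool 1 (0.63), 2 (0.52) or 3 (0.66), with limma adjusted p of at most 0.0833. Lifr was not called without intact-mated pool 2 (-0.82), 3 (-0.80) or 4 (-0.76), or vasectomised-mated pool 1 (-0.90), 2 (-0.83), 3 (-0.80) or 4 (-0.75), with limma adjusted p of at most 0.110. Cebpd was called without intact-mated pool 4 (0.67), and missed the adjusted p without any 1 of the other 7 mated pools (log2 difference 0.51 to 0.66, limma adjusted p 0.0516 to 0.111). Without control 1, 2 or 3, which leaves its difference at 0.68, Lif was called.

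The other genes of the pathway were taken in 6 lists of 83 genes, of which 77 had a cluster with their symbol alone. Of these 77 genes 12 were higher and 2 lower in intact-mated females, 4 higher and 1 lower in vasectomised-mated females, and 2 higher and 0 lower in intact- than in vasectomised-mated females. As shares of the 77 these were 15.6% and 2.6%, 5.19% and 1.3%, and 2.6% and 0%, against 2.71% and 2.08%, 1.16% and 0.633%, and 0.592% and 0.266% of all clusters with 1 symbol, so that the shares called lower lay near those of all clusters. For that 0 in limma, 8 genes (10.4%, against 8.51% of all clusters) were lower at an unadjusted p under 0.05 and 1, Jak2, at an adjusted p of at most 0.05. Without intact-mated pool 2 or control 4 the 2 genes lower in intact-mated females became 1. Without vasectomised-mated pool 1 or control 4 the 4 genes higher in vasectomised-mated females became 2. The 2 genes higher between the mated groups became 0 without intact-mated pool 2 or 4, 1 without vasectomised-mated pool 2 or 4, and 4 without intact-mated pool 1.

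In limma 0 genes were called among 7 other ligands of the family (Clcf1, Ctf1, Ctf2, Il27, Ebi3, Il31 and Il12a) or among 4 other receptor subunits (Il6ra, Cntfr, Il27ra and Il31ra). Their median log2 fold-changes were 0.03 and -0.12 in intact-mated females and -0.02 and -0.15 in vasectomised-mated females. At an unadjusted p under 0.05, 1 ligand was higher and 1 receptor lower in intact-mated females, 1 ligand higher and 2 receptors lower in vasectomised-mated females, and 0 differed between the mated groups. Of all clusters with 1 symbol 14.2% were higher and 13.3% lower by that measure in intact-mated females, and 10.5% and 9.21% in vasectomised-mated females. Clcf1, cardiotrophin-like cytokine factor 1, had the largest value of these ligands, 0.44 in intact-mated females (limma adjusted p = 0.0288) and 0.37 in vasectomised-mated females (limma adjusted p = 0.0945). Il6ra, the alpha chain that binds IL6, had log2 fold-changes of -0.17 and -0.36 (limma adjusted p = 0.313 and 0.0463), and was named with Clcf1 after the values were seen.

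Among 12 measured JAK kinases, other STATs and adaptors, 2 were lower in intact-mated females and 1 in vasectomised-mated females, with medians of 0.01 and 0.02. These were 16.7% and 8.33% of the list, against 2.08% and 0.633% of all clusters with 1 symbol. Stat5a, which transmits prolactin and other cytokine signals, had values of 9.06, 9.17, 9.21 and 9.24 in intact-mated pools, 9.41, 9.21, 9.48 and 9.41 in vasectomised-mated pools, and 10.06, 9.95, 10.37 and 10.49 in controls. Both mated groups lay below all controls. It was 2.07-fold lower in intact-mated females (limma adjusted p = 8.59e-05) and 1.79-fold lower in vasectomised-mated females (limma adjusted p = 0.00182). Stat5b, its close paralog, was 1.53-fold lower in intact-mated females (limma adjusted p = 0.000386) and 1.37-fold lower in vasectomised-mated females, which passed the test under the fold threshold (limma adjusted p = 0.00836). The paralogs are close in sequence, so how signal divides between their probes is uncertain. Jak2, a kinase bound to gp130 and to other cytokine receptors, fell by 0.57 on the log2 scale in intact-mated females (SE 0.08, limma adjusted p = 0.000518), or 1.49-fold, under the threshold. It was also lower by test in intact- than in vasectomised-mated females (log2 difference -0.42, SE 0.08, limma adjusted p = 0.0186), and was named after its values were seen.

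Of 14 other negative regulators Cish alone was called, in intact-mated females against controls. That was 7.14% of the list, where 2.71% of all clusters with 1 symbol were called higher. Cish, a SOCS family inhibitor induced by STAT5, had values of 9.63, 9.97, 9.67 and 9.95 in intact-mated pools, 9.15, 9.24, 9.49 and 9.18 in vasectomised-mated pools, and 8.82, 9.002, 9.03 and 9.05 in controls. The 3 groups did not overlap. Cish rose 1.78-fold in intact-mated females (limma adjusted p = 0.00027), while Stat5a and Stat5b were lower there. Its log2 fold-change in vasectomised-mated females was 0.29 (SE 0.10, limma adjusted p = 0.148). Socs1, another SOCS inhibitor, named after its values were seen, had a log2 fold-change of 0.41 (SE 0.07, limma adjusted p = 0.00308) in intact-mated females, under the fold threshold.

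The list of IL6 and STAT3 response genes had 33 members, of which 10 were higher and 0 lower in intact-mated females, and 3 higher and 0 lower in vasectomised-mated females, with medians of 0.27 and 0.14. The shares called higher were 30.3% and 9.09%, where 2.71% and 1.16% of all clusters with 1 symbol were. At an unadjusted p under 0.05, 19 were higher and 1, Mcl1, lower in intact-mated females, against 14.2% and 13.3% of all clusters, and 12 higher and 0 lower in vasectomised-mated females, against 10.5% and 9.21%. Several of these genes also answer to NF-kB or interferon, so the list is not one of STAT3 alone. Saa3, an acute-phase serum amyloid A made outside the liver, had values of 7.95, 9.09, 8.92 and 8.96 in intact-mated pools, 7.43, 6.84, 7.31 and 7.75 in vasectomised-mated pools, and 6.29, 5.98, 6.58 and 6.29 in controls. The 3 groups did not overlap, and intact-mated pool 1 lay well below the other intact-mated pools. Saa3 rose 5.44-fold in intact-mated females (limma adjusted p = 5.95e-05) and 2.07-fold in vasectomised-mated females (limma adjusted p = 0.0346), and the mated groups differed by 1.397 on the log2 scale (SE 0.25, limma adjusted p = 0.0166). Icam1, an adhesion molecule for leukocytes, was 3.42-fold higher in intact-mated females (limma adjusted p = 0.000225) and 2.25-fold higher in vasectomised-mated females (limma adjusted p = 0.0104). Cd14, the co-receptor that passes lipopolysaccharide to TLR4, was 3.04-fold higher in intact-mated females (limma adjusted p = 4.65e-06) and 2.27-fold higher in vasectomised-mated females (limma adjusted p = 0.00028). Steap4, a metalloreductase, had values of 8.88, 9.43, 9.12 and 9.69 in intact-mated pools, 8.49, 7.78, 8.46 and 8.69 in vasectomised-mated pools, and 8.23, 7.92, 7.58 and 7.31 in controls, with vasectomised-mated pool 2 among the controls. It rose 2.87-fold in intact-mated females (limma adjusted p = 0.00142), and its log2 fold-change of 0.59 in vasectomised-mated females was not called (SE 0.24, limma adjusted p = 0.202).

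The other 6 genes higher in intact-mated females were Bcl3, Fos, Vegfa, Nfil3, Lrg1 and Serpina3n, named after their values were seen. Lrg1, a secreted glycoprotein, was the second gene called between the mated groups, with a log2 difference of 0.65 (SE 0.14, limma adjusted p = 0.0305).

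Among 7 measured uterine genes linked to LIF 1 (14.3%) was higher in each mated group, against 2.71% and 1.16% of all clusters with 1 symbol. This was Hbegf, an EGF family ligand known at the site of embryo attachment, with values of 9.79, 9.99, 9.73 and 9.74 in intact-mated pools, 9.91, 9.72, 9.56 and 9.79 in vasectomised-mated pools, and 8.99, 9.46, 8.48 and 8.77 in controls. Hbegf was 1.85-fold higher in intact-mated females (limma adjusted p = 0.00482) and 1.76-fold higher in vasectomised-mated females (limma adjusted p = 0.0170). Unlike Lif, its mated groups overlapped and differed by 0.07 on the log2 scale (interval -0.29 to 0.43, limma adjusted p = 0.884). The other 6, Msx1, Msx2, Egr1, Coch, Igfbp3 and Ihh, were not called.

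**Figure D3:**
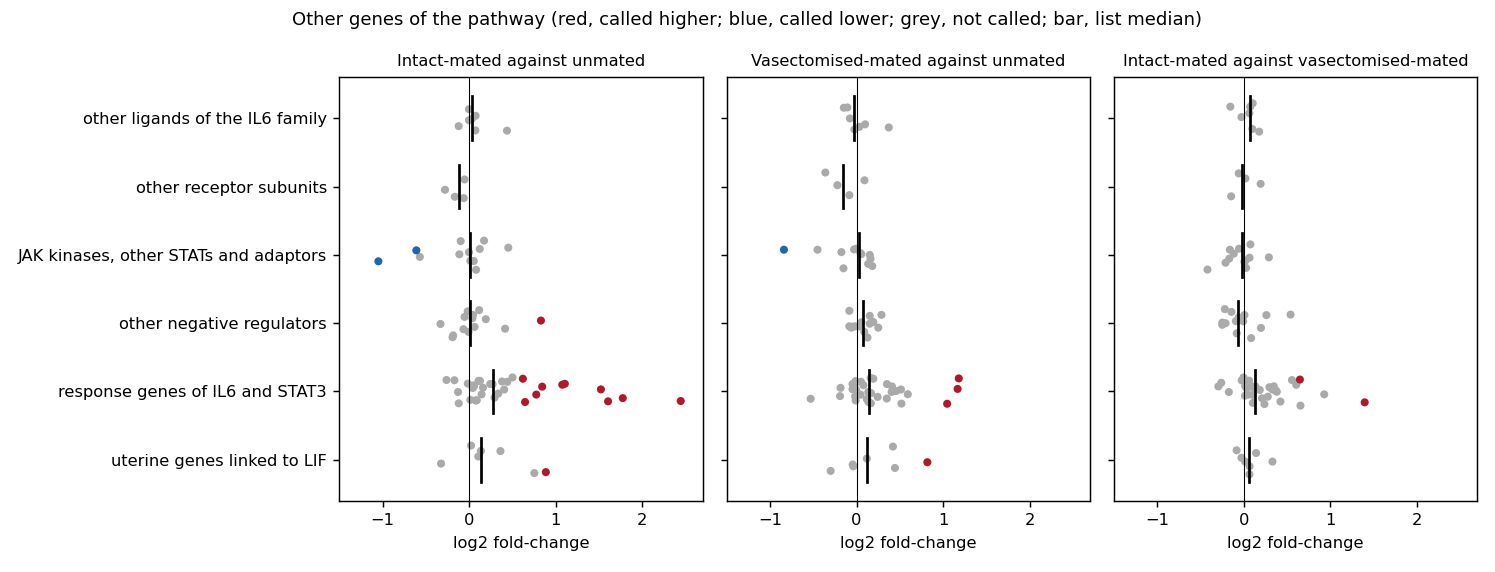
Log2 fold-change (horizontal axes) of the 77 other measured genes of the pathway in the 3 comparisons, by list. Points are genes, red called higher, blue called lower and grey not called, and bars are list medians. The response genes of IL6 and STAT3 hold 10 of the 12 red points in intact-mated females.

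Markers of other cells moved with some of these values. Of 16 neutrophil markers, S100a9, Cxcr2 and Csf3r were higher and 0 lower in intact-mated females, both against controls and against vasectomised-mated females. These were 18.8% of the list, where 2.71% and 0.592% of all clusters with 1 symbol were called higher. In vasectomised-mated females 0 were called against controls. There 2 (12.5%, against 10.5% of all clusters) were higher at an unadjusted p under 0.05, of which Ltf passed the adjusted p. The mean log2 value of the list was 7.42 to 7.70 in intact-mated pools, 7.18 to 7.30 in vasectomised-mated pools and 7.09 to 7.19 in controls. Cxcr2, the neutrophil chemokine receptor, rose 4.74-fold in intact-mated females (limma adjusted p = 0.000162). Ly6g, a surface marker of mouse neutrophils, was not called and ran the other way. Its log2 differences were -0.44 from controls (limma adjusted p = 0.330) and -0.27 from vasectomised-mated females (limma adjusted p = 0.633). All 4 intact-mated pools lay below the vasectomised-mated pools, and the highest values, 10.48 and 10.67, were in unmated controls 3 and 4. By staining, the paper found more Ly6G-positive cells in the endometrium after intact than after vasectomised mating. The RNA values of Ly6g did not follow that protein measure, and what they follow was not tested. The granule genes Camp, Ngp, Elane and Mpo were not called, with log2 fold-changes in intact-mated females of 0.04, 0.09, 0.15 and 0.06. Ltf, also a granule gene, was higher by test in both mated groups, under the fold threshold. Its log2 fold-changes were 0.49 in intact-mated (limma adjusted p = 0.00179) and 0.39 in vasectomised-mated females (limma adjusted p = 0.0182). Ltf already stood at 13.02 to 13.40 in unmated controls. Which cells gave that signal was not tested, so its rise is not read as one of neutrophils. S100a8 was higher by test in intact-mated females (0.47, limma adjusted p = 0.0241), also under that threshold. Both were named after their values were seen. Within the intact-mated pools the neutrophil list was lowest in pool 1. So were the macrophage and monocyte, dendritic cell, stromal, smooth muscle, endothelial, and fat and mesothelium lists. The epithelial list and that of T, NK and B cells were not. Il6, Osm, Il6st, Lifr, Osmr, Stat3, Socs3 and Cebpd were highest in that pool, while Il11, Saa3 and Steap4 were lowest. This describes a single pool. The part of these cells in the values of Il6, Osm and the response genes was not tested.

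Of 9 stromal markers 1, Col1a1 (11.1%, against 2.08% of all clusters with 1 symbol), was lower in intact-mated females and 0 in vasectomised-mated females. At an unadjusted p under 0.05, 7 were lower in intact-mated females, 2 in vasectomised-mated females and 0 between the mated groups, where 13.3%, 9.21% and 8.51% of all clusters with 1 symbol were. The mean of the list was 8.87 to 9.61 in intact-mated pools, 9.28 to 9.83 in vasectomised-mated pools and 9.38 to 10.27 in controls, where controls 1 and 2 stood at 10.27 and 10.23 and controls 3 and 4 at 9.47 and 9.38. Lifr stood at 10.84 and 10.20 in controls 1 and 2 and at 11.19 and 10.94 in controls 3 and 4, with controls 1 and 4 close together. Its log2 fold-change in intact-mated females was -1.33 without controls 1 and 2 (limma adjusted p = 0.000113). Without controls 3 and 4 it was -0.79 (limma adjusted p = 0.0208). Lif was lower in controls 1 and 2. Other lists parted the controls in the same way, with 7.78 and 7.76 against 7.02 and 7.003 for endothelium, 7.59 and 7.80 against 6.90 and 6.81 for dendritic cells, and 8.13 and 8.08 against 7.53 and 7.32 for macrophages and monocytes in controls 1 and 2 against 3 and 4. The part of these cells in the values of Lifr and Lif was not tested. The mean of the epithelial list was 11.63 to 11.71 in intact-mated pools, 11.56 to 11.63 in vasectomised-mated pools and 11.55 to 11.70 in controls. Its members moved apart, as Cldn7, a claudin of epithelial junctions, was higher by test in intact-mated females (log2 fold-change 0.55, limma adjusted p = 0.000525), and Krt7, a keratin, lower by test in intact-mated (-0.35, limma adjusted p = 0.0276) and vasectomised-mated females (-0.50, limma adjusted p = 0.0104), all under the fold threshold. Of 10 macrophage and monocyte markers 0 were called in any comparison in limma, and at an unadjusted p under 0.05 Cd68 was the 1 that differed. Cd68, a lysosomal protein of macrophages, also passed the adjusted p, at 1.37-fold higher in intact-mated females (limma adjusted p = 0.00631) and 1.38-fold higher in vasectomised-mated females (limma adjusted p = 0.0125).

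**Figure D4:**
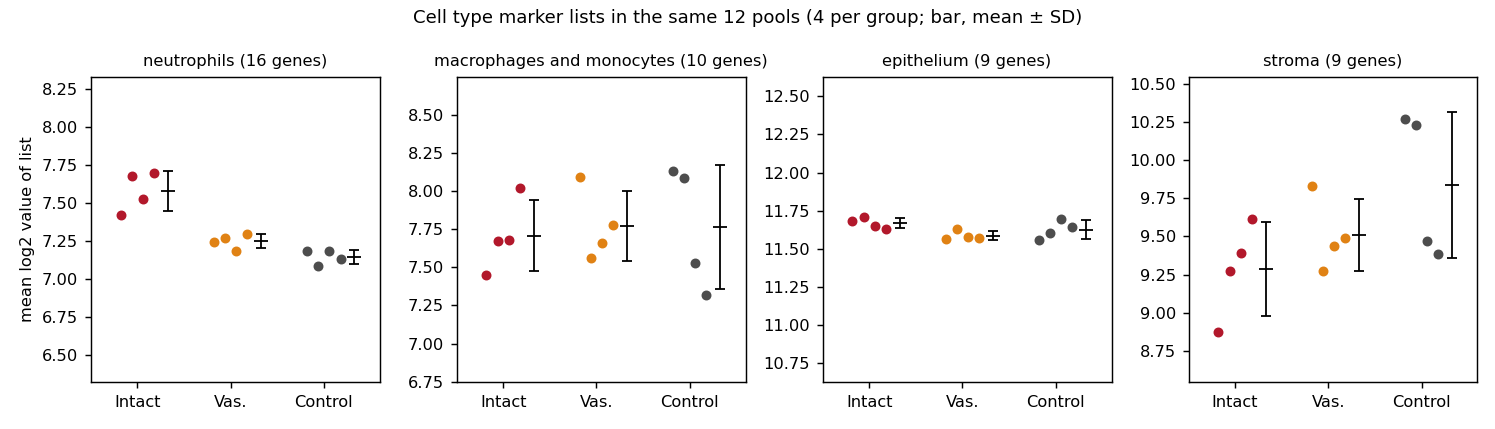
Mean log2 value (vertical axes) of 4 marker lists in each intact-mated, vasectomised-mated (Vas.) and unmated control pool. Points are arrays and bars the mean ± SD. The neutrophil list was highest in the 4 intact-mated pools, and the stromal list parted controls 1 and 2 from controls 3 and 4.

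For each called member the 2 genes with the most similar values were sought, by the root mean square difference over the 12 arrays after each gene was centred on its own mean. Being chosen for likeness, they are a description with no test. Il6 ran closest to Ptpn22, a phosphatase of lymphocyte signalling (difference 0.12), and to Wdr47 (0.13). Lif ran closest to Isg20 (0.17) and Usp18 (0.18), both induced by interferon, with log2 fold-changes of 0.96 and 1.07 in intact-mated females and 0.31 and 0.53 in vasectomised-mated females. Lifr ran closest to Rasa4, a regulator of RAS (0.15), and Tshr, the thyrotropin receptor (0.15), whose log2 fold-changes were -1.15 and -0.85 in intact-mated females and -0.31 and -0.03 in vasectomised-mated females. Cebpd ran closest to C2, a complement component (0.17), and Slc26a9, an anion transporter (0.19).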

How the data were processed

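Endometrial RNA of 12 pools, 4 in each of 3 groups, had been hybridised to Affymetrix Mouse Gene 1.0 ST arrays, with 300 ng of RNA per array and 4 females per pool. The authors imported the scans into Partek with RMA background correction, a correction for GC content and summarization by the mean of the probes, and the log2 values were deposited. Whether arrays were also normalised to each other is not given in the sources used here. No further normalization or filter was applied to the deposited values.

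Of 35556 transcript clusters, 21789 carried 1 gene symbol in the platform annotation, 1621 several and 12146 none, and a gene was read from its single-symbol clusters only. A linear model over the 3 groups was fitted to every cluster with limma 3.58.1 in R 4.3.3, with moderated variances and two-sided tests, and p-values were adjusted over all clusters by Benjamini-Hochberg. Genes were called at 1.5-fold or more with an adjusted p no greater than 0.05. As arrays held pools, p-values measure the spread between pools. The fit was tested on simulated data.

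The members and lists were chosen with earlier results of these data known, and no test was made over a list. In the text stand all 10 members, every called gene of a pathway list or, where there were over 4, those 4 with the largest change, and for each called member the 2 genes most like it over the arrays. Genes outside this rule are said to be named after their values were seen. Alternatives covered normalization, moderation, weights, filters, thresholds and left-out arrays. Promoter windows came from RefSeq (GRCm38.p6).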

Additional observations from a re-analysis of the deposited data

Results flagged for a closer look

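Intact-mated and vasectomised-mated females were compared with the same unmated controls, and the difference between the mated groups was itself tested. It passed at 1.5-fold or more for 2 members, for Saa3 and Lrg1 of the pathway lists and for 3 neutrophil markers. Il6 was higher in intact-mated than in vasectomised-mated females by 0.63 on the log2 scale (SE 0.13, limma adjusted p = 0.0281). Lifr was lower by test, with a log2 difference of -0.82 (SE 0.18, limma adjusted p = 0.0343). Saa3 was higher, with a log2 difference of 1.397 (SE 0.25, limma adjusted p = 0.0166). Lrg1 had a log2 difference of 0.65 (SE 0.14, limma adjusted p = 0.0305). The markers S100a9, Cxcr2 and Csf3r had log2 differences of 1.17, 1.92 and 1.08 (limma adjusted p = 0.0235, 0.00568 and 0.0236).

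One array stood apart from its group. In intact-mated pool 1 the log2 value of Saa3 was 7.95, while the next of the 4 intact-mated pools was 8.92, and this gap made up 0.852 of the range of the group, above the critical ratio of Dixon's test. In all 54 groups of 4 arrays were examined, for 18 genes, and 1 stood out in this way, where chance flags about 1 group in 20.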

How the results depend on the processing

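Calls of the members against unmated controls changed little with the processing. The 3 higher and 1 lower in intact-mated females became 5 higher and 2 lower without the fold threshold. At a fold of at least 2, Il6 lost its call there, as it rose 1.92-fold. In vasectomised-mated females the 1 higher member became 0 at a fold of at least 2, and 2 with controls 3 and 4 left out. Between the mated groups the calls were unstable. The 1 higher member became 2 with arrays centred on their medians, under quantile normalization, moderation with trend and robust, a fit of only the groups compared, correction over clusters with 1 symbol, 1 cluster per gene, no fold threshold, or with controls 1 and 2 or controls 3 and 4 left out, and 3 under array weights. It became 0 without variance moderation and at a fold of at least 2, and ran from 0 to 2 when single arrays were left out. The 1 lower member became 0 without variance moderation and at a fold of at least 2, and ran from 0 to 1 when single arrays were left out.

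With the replicate number as a block (replicate block), 0 members were higher and 0 lower between the mated groups in limma (Il6 adjusted p = 0.0523, Lifr adjusted p = 0.0656), and no other count of members or pathway genes moved by over 1.5 times. The numbers did not pair the arrays. Of 12 same-numbered pairs 2 correlated above 0.1, with correlations from -0.26 to 0.20, and 3 of the 12 arrays correlated best with their own number.

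Of the pathway lists, the 12 genes higher in intact-mated females became 6 at a fold of at least 2. The 2 lower became 1 at a fold of at least 2, 5 without the fold threshold and 1 with controls 3 and 4 left out, and ran from 1 to 3 over left-out arrays. In vasectomised-mated females the 4 higher became 2 without variance moderation and ran from 2 to 5 over left-out arrays, and the 1 lower became 0 at a fold of at least 2 and 3 without the fold threshold. Between the mated groups the 2 higher became 0 without variance moderation, 1 at a fold of at least 2 and 7 without the fold threshold, and ran from 0 to 4 over left-out arrays, while the 0 lower became 1 without the fold threshold. The cause of these moves was not tested. No member reversed a call under the alternatives run. Il6, Il11 and Osm have no value without dim clusters, as their means lie below that limit.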
